A study of Mus musculus with 24 samples.

Results

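Cells make cholesterol from acetyl-CoA, through mevalonate, farnesyl pyrophosphate, squalene and lanosterol, and fatty acids from acetyl-CoA through malonyl-CoA. The transcription factor SREBP-2, encoded by Srebf2, drives most genes of the sterol branch, and SREBP-1, encoded by Srebf1, drives those of the fatty acid branch. When membrane cholesterol is plentiful, INSIG proteins hold SCAP, the escort of SREBP, in the endoplasmic reticulum, and the target genes are read less; lymphoid cells that grow and divide are known to use the pathway for new membrane. The sterol and fatty acid synthesis genes described here are a list of 30 genes, chosen by symbol: 8 enzymes of the mevalonate and isoprenoid steps, 11 enzymes from squalene to cholesterol, 6 genes of sterol sensing and transport and 5 genes of fatty acid synthesis. Of these, 27 had a probe set named by their symbol alone, out of 17097 genes tested, while Acat2, Pmvk and Srebf1 were not analysed here.

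The levels were read from 24 Affymetrix arrays of mouse leukaemia RNA. The line BKO408 arose in a Blnk knockout mouse as a leukaemia of precursor B cells (preB-ALL), so all 8 cell-line arrays lack Blnk, the adaptor protein of pre-B receptor signalling; the cells grew in RPMI1640 with 10% serum and 5 ng/ml IL-7. Of those arrays, 4 were of BKO408 cells and 4 of the same cells after transduction by a retrovirus that carries LAP, which is C/EBPβ (gene Cebpb) in its activating form; the labels do not say whether the control cells received an empty virus. Among the tumours, 5 were preB-ALL from homozygous Blnk knockout mice and are called Blnk tumours, and 3 were preB-ALL from mice with both the knockout and a Cebpb LAP transgene, called LAP/Blnk tumours. Mice with the LAP transgene alone gave 4 preB-ALL (LAP preB-ALL) and 4 B-ALL (LAP B-ALL). The labels give no promoter of the transgene, no tissue or share of tumour cells and no strain or age of the mice. They do not say either that arrays of a group came from separate cultures or animals, so p-values measure only how far these arrays spread. A value is a log ratio, taken as log2, of a gene to its own median over the 8 cell-line arrays or, separately, over the 16 tumours. It holds no level of expression, so it compares arrays within each set and not genes with each other or cells with tumours.

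The labels were checked first. Cebpb differed by 0.15 (SE 0.06) between LAP-transduced and control cells, with overlapping arrays and an adjusted p of 0.0855 (limma). Other probe sets of Cebpb differed by 0.06 and -0.07, so the arrays gave no clear rise of Cebpb in the transduced cells. In the tumours Cebpb lay between -4.50 and -1.94 in the Blnk tumours and between -1.41 and 0.90 in the tumours of LAP mice, apart from the tumour labelled LAP B-ALL 4 at -3.11. That is 1 of 3 probe sets of Cebpb. A second, which correlated with it at 0.48 over the tumours, did not separate them, with Blnk tumours from -1.38 to 1.38 and LAP/Blnk tumours at 0.41, -1.28 and -1.18. The third overlapped too. Blnk did not separate the knockout tumours from the others, and the labels do not say which part of either gene the deletion or the probe sets cover. Over all genes the tumour labelled LAP preB-ALL 4 correlated at 0.81 to 0.86 with LAP B-ALL 1 to 3, the range of those 3 among themselves, and at -0.16 to 0.31 with LAP preB-ALL 1 to 3. The tumour labelled LAP B-ALL 4 correlated at -0.07 to -0.03 with LAP B-ALL 1 to 3 and at -0.13 to -0.08 with LAP preB-ALL 1 to 3, so it resembled neither group. LAP preB-ALL 2 also stood apart from its group, at -0.03 with LAP preB-ALL 1 and -0.01 with LAP preB-ALL 3 but at 0.28 to 0.39 with LAP B-ALL 1 to 3. All were kept under their labels. Comparisons with LAP preB-ALL or LAP B-ALL are given with and without both tumours numbered 4, and also without LAP preB-ALL 2 where that changes a call.

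In BKO408 cells, LAP came with lower levels of most of the pathway. Of the 27 genes, 20 were lower with LAP at an adjusted p under 0.05 and 0 were higher, where 22.3% of all genes tested were called, 11.8% lower and 10.5% higher. The 4 arrays of LAP cells lay wholly below the 4 control arrays for 20 genes, against 14.4% of all genes, and wholly above them for Tm7sf2 alone, against 12.3%. The median difference over the 27 genes was -0.28, against -0.01 over all genes, and 25 of 27 differences were below 0, against 57.1% of all genes. The differences were modest in size. The median size among the 20 genes was 0.341 on the log2 scale, against 0.194 among all genes past the threshold, and the largest, Insig1, ranked 69th of the 2019 genes that were lower. In bulk RNA, fewer cells with a transcript and less of it per cell cannot be told apart.

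**Figure D1:**
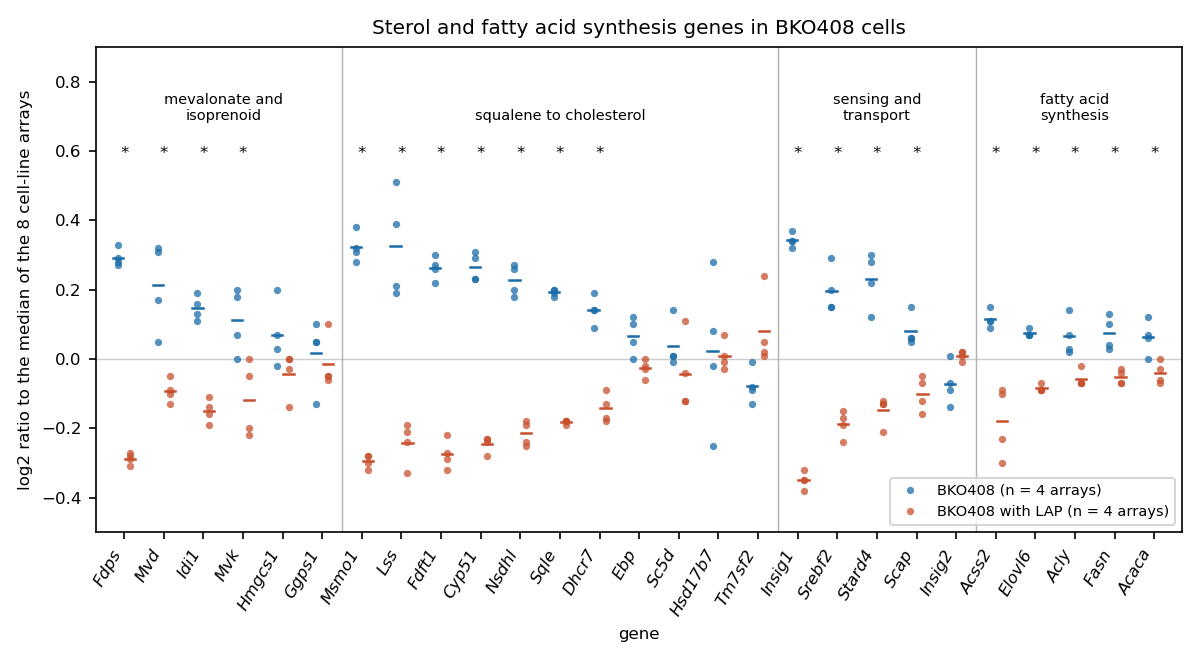
Log2 ratio of each of the 27 genes to its median over the 8 cell-line arrays (vertical axis), with genes grouped by role on the horizontal axis. Points are single arrays, 4 of BKO408 and 4 of BKO408 with LAP, short lines are group means and a star marks an adjusted p under 0.05. All 20 starred genes have every LAP array below every control array.

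Among the enzymes that build mevalonate and isoprenoid chains, 4 of 6 were lower. Fdps, which makes farnesyl pyrophosphate, the branch point to sterols and prenyl groups, read 0.33, 0.27, 0.28 and 0.29 in control cells and -0.31, -0.27, -0.29 and -0.28 in LAP cells. The groups were far apart relative to their spread, and the difference was -0.58 (SE 0.03), or 1.49-fold, with an adjusted p of 6.02e-07. Mevalonate diphosphate decarboxylase, Mvd, differed by -0.31 (SE 0.06), and isopentenyl diphosphate isomerase, Idi1, by -0.30 (SE 0.03). Mevalonate kinase, Mvk, differed by -0.23 (SE 0.06, adjusted p 0.0229). Mvk lost its call without array 2 or 4 of either group (adjusted p 0.0604 to 0.0664). Hmgcs1, the synthase that commits acetyl-CoA to the pathway, was at -0.11 (adjusted p 0.166) and Ggps1, which makes geranylgeranyl pyrophosphate, at -0.03, and neither passed the test. The other 2 probe sets of Ggps1 read 0.15 and 0.20, so the array gives no single direction for that gene.

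From squalene to cholesterol, 7 of 11 enzymes were lower. Msmo1, the oxidase that starts removal of the methyl groups at carbon 4 of the sterol, read 0.38, 0.28, 0.31 and 0.32 in control cells and -0.28, -0.30, -0.32 and -0.28 in LAP cells, a difference of -0.62 (SE 0.03), or 1.54-fold, with an adjusted p of 8.31e-07. A second probe set of Msmo1, the one chosen by name, differed by only -0.08 and was not called (adjusted p 0.381 in limma). Lss, which closes the ring to give lanosterol, read 0.19, 0.21, 0.51 and 0.39 in control cells and -0.19, -0.33, -0.24 and -0.21 in LAP cells. Its control arrays varied more than those of Msmo1, and the difference was -0.56 (SE 0.07, adjusted p 0.000369). Squalene synthase, Fdft1, ran from 0.22 to 0.30 in control cells and from -0.32 to -0.22 with LAP, a difference of -0.54 (SE 0.03). The lanosterol demethylase Cyp51 ran from 0.23 to 0.31 and from -0.28 to -0.23, a difference of -0.51 (SE 0.03); its other probe sets gave -0.53 and -0.12. Nsdhl, a dehydrogenase of the demethylation steps, differed by -0.45 (SE 0.03). The epoxidase Sqle, a rate-limiting step, had some of the tightest arrays of the list, from 0.18 to 0.20 in control cells and from -0.19 to -0.18 with LAP, and differed by -0.38 (SE 0.02). Dhcr7, the reductase of a final step, differed by -0.28 (SE 0.03).

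The 4 enzymes of this stretch that did not pass were Ebp, Sc5d, Hsd17b7 and Tm7sf2. The isomerase Ebp was at -0.10 (adjusted p 0.0762, or 0.0303 without control array 3), and the desaturase Sc5d at -0.08 with 2 further probe sets at 0.07 and 0.02. The 3-ketosteroid reductase Hsd17b7 was at -0.01, with control arrays spread from -0.25 to 0.28. Tm7sf2, a sterol reductase whose reaction the lamin B receptor also carries out, was the only enzyme of this stretch above 0, at 0.15 (adjusted p 0.0739).

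The regulators split between both INSIG genes. Insig1, itself a well-known SREBP target, read 0.34, 0.32, 0.37 and 0.34 in control cells and -0.32, -0.35, -0.35 and -0.38 in LAP cells. Its difference of -0.69 (SE 0.03), or 1.61-fold, was the largest of the 27, with an adjusted p of 2e-07. Insig2, the relative that SREBP does not drive in the same way, read -0.14, -0.09, -0.07 and 0.01 in control cells and 0.02, 0.01, 0.02 and -0.01 with LAP. These overlap, the difference was 0.08 (SE 0.03, adjusted p 0.121, or 0.0305 without control array 4), and 2 further probe sets of Insig2 read -0.01 each. Srebf2 read 0.29, 0.15, 0.15 and 0.20 against -0.24, -0.15, -0.19 and -0.17, a difference of -0.39 (SE 0.04) that a second probe set gave as -0.28. Scap read 0.15, 0.05, 0.06 and 0.06 against -0.12, -0.16, -0.05 and -0.07, a smaller difference of -0.18 (SE 0.03, adjusted p 0.00438). Stard4, a carrier of cholesterol between membranes, was at -0.38 (SE 0.04), with -0.31 and -0.30 from its other probe sets. With the probe set chosen by name, at -0.31, Stard4 lost its call (adjusted p 0.0821 in limma).

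All 5 genes of fatty acid synthesis passed the test and were lower. Acss2, which makes acetyl-CoA from acetate, differed by -0.30 (SE 0.05) and a second probe set by -0.24. The elongase Elovl6 differed by -0.16 (SE 0.02), fatty acid synthase, Fasn, by -0.13 (SE 0.03), ATP citrate lyase, Acly, by -0.13 (SE 0.03) and acetyl-CoA carboxylase, Acaca, by -0.10 (SE 0.03). Several of these calls were fragile. Acaca sat at the threshold with an adjusted p of 0.0495, lost its call without any 1 array but control array 2 (adjusted p 0.0563 to 0.122), and had a second probe set at -0.02. Acly had a second probe set at -0.04 and lost its call without LAP array 1, 2 or 3 (adjusted p 0.0544 to 0.0565). The other probe sets of Elovl6 read 0.11 and 0.06, and the mean of its probe sets gave 0.00, so the direction of Elovl6 rests on 1 of 3 probe sets.

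Genes around the pathway did not follow it as a block. Of 13 other sterol and isoprenoid genes, 3 were higher and 2 lower, with a median of 0.01. Over all genes 10.5% were called higher and 11.8% lower, the shares to set beside this list and those that follow. Nus1 (0.23) and Dhdds (-0.24), the subunits of the enzyme that builds the dolichol chain, moved in opposite directions. Pggt1b, a subunit of a protein geranylgeranyl transferase, was at 0.17, the ubiquinone enzyme Coq2 at 0.13 and the electron donor Cyb5r3 at -0.15. With a probe set chosen by its name instead, Dhdds (-0.09, adjusted p 0.104), Pggt1b (0.03, 0.583) and Cyb5r3 (-0.08, 0.181) lost their calls in limma.

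Among 12 partners of SREBP processing and sterol sensing, 8 were higher and 1 lower, and the median was 0.20. Of the 8, Mbtps2 (0.05, adjusted p 0.252), Ufd1 (0.10, 0.0795) and Mbtps1 (-0.06, 0.25) lost their calls in limma with the probe set chosen by name. Paqr3, a Golgi protein that binds SCAP, read -0.46, -0.54, -0.39 and -0.73 in control cells and 0.50, 0.39, 0.55 and 0.49 with LAP, a difference of 1.01 (SE 0.07). Ube2g2, a ubiquitin-conjugating enzyme of protein breakdown at the endoplasmic reticulum, was at 0.55 (SE 0.04), Tmem97, a sterol-regulated partner of NPC1, at 0.38 and Erlin1, a membrane protein of the endoplasmic reticulum, at 0.27. The ubiquitin ligase Rnf139 was the lower gene, at -0.09. The 17 genes of sterol uptake, storage and efflux were divided, with 2 higher and 3 lower. Here the lysosomal cholesterol carrier Npc2 was at -0.35, the lipoprotein receptor Scarb1 at -0.30, the ubiquitin ligase Mylip at -0.30, the receptor Lrp8 at 0.27 and the oxysterol-binding protein Osbp at 0.19.

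Of 21 other genes of fatty acid and triglyceride synthesis, 9 were lower and 1 higher, and the median was -0.11. The desaturase Fads2 differed by -0.56 (SE 0.03) and the glycerol-phosphate acyltransferase Gpam by -0.54 (SE 0.02), both well beyond any of the 5 fatty acid genes above. Lpin1, a phosphatidate phosphatase, was at -0.35, the desaturase Fads1 at -0.33 and the elongase Elovl1, the higher gene, at 0.15. Of 14 fatty acid oxidation genes, 3 were lower and 2 higher, with a median of -0.02. The lower ones were Cpt2 (-0.28), Acadl (-0.27) and Acads (-0.15), enzymes of mitochondrial import and dehydrogenation. The higher ones were the coactivator Ppargc1b (0.30) and the dehydrogenase Acadm (0.11). Some calls in these surrounding lists were lost when 1 array was left out. Elovl1 lost its call without any 1 array but control array 1, and Acadm without any but array 3 of either group (adjusted p 0.0502 to 0.107). Cyb5r3 lost its call without any but control array 2 or LAP array 3, and Rnf139 without any but control array 2 or 4 (adjusted p 0.05 to 0.089). The SREBP protease Mbtps1, at 0.25 (SE 0.07, adjusted p 0.0261), lost its call without control array 1, 2 or 3 or LAP array 1 or 2 (adjusted p 0.0562 to 0.071), and its probe set chosen by name read -0.06 (adjusted p 0.25).

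Other genes moved in the same arrays, where 11.8% of all genes were called lower and 10.5% higher. The list counts below stand beside these shares and were not tested as lists. Of 13 monocyte and macrophage markers, 3 were higher with LAP, among them Ccr2 (2.25) and Lyz2 (1.53) with Fcgr1 (0.41). Of 12 B-lineage markers, 4 were lower, Dntt (-1.91), Rag1 (-1.32), Rag2 (-1.19) and Ebf1 (-0.20), and Cd79b was higher (0.14). Of 11 granulocyte markers, Mmp8 (0.45) and Prtn3 (0.44) were higher and Elane (-0.12) lower. The T-cell and NK-cell, erythroid and stromal lists had 2 of 11, 1 of 7 and 1 of 11 genes lower (Klrb1c, Cd8b1, Car2 and Pecam1). The median of each list stayed between -0.08 and 0.11 in every cell-line array, and the part of these genes in the sterol result was not tested.

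The promoters of genes that were lower in LAP cells are shown because SREBP acts at such stretches together with NF-Y, which binds CCAAT boxes, and Sp1, which binds GC boxes, while C/EBPβ is known to bind sites like TTGCNNAA. Sequences of the 250 bases before the gene start came from RefSeq (GRCm38.p6), which had an entry for 26 of the 30 genes. Fdps and Fdft1 were not matched, so those printed are Insig1, Msmo1, Lss, Cyp51 and Nsdhl, the next by size. Each is written 5′ to 3′ on the strand of the gene, with capitals on every match, on either strand, to the CCAAT box, the GC box GGGCGG, the E-box CACGTG, the C/EBP motif TTGCNNAA or CACNCCAC, a looser form of the sterol regulatory element TCACNCCAC, which contains it. The stretches are chr5:28071162-28071411 for Insig1 on the plus strand, chr8:64733579-64733828 for Msmo1 on the minus strand, chr10:76531355-76531604 for Lss on the plus strand, chr5:4104698-4104947 for Cyp51 on the minus strand and chrX:72918271-72918520 for Nsdhl on the plus strand.
Insig1: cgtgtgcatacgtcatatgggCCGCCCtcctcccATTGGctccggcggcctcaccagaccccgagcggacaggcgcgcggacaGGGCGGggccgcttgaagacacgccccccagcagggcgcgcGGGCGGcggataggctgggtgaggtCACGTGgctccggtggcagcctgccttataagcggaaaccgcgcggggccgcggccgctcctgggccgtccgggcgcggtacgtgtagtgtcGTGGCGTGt
Msmo1: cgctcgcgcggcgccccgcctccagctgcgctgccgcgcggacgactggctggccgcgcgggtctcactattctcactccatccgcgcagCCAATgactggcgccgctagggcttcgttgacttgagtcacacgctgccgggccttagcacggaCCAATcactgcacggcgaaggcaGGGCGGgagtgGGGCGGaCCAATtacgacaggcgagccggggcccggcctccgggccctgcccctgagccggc
Lss: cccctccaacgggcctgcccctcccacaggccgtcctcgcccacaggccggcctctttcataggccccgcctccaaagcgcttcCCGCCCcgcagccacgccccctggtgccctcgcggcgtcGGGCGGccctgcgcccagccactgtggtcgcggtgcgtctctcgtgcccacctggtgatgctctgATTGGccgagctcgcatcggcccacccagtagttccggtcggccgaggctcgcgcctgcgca
Cyp51: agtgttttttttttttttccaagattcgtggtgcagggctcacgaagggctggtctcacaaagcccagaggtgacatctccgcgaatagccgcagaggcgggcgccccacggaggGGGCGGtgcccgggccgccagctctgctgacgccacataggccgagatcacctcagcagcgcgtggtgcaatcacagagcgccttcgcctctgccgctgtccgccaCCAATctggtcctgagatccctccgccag
Nsdhl: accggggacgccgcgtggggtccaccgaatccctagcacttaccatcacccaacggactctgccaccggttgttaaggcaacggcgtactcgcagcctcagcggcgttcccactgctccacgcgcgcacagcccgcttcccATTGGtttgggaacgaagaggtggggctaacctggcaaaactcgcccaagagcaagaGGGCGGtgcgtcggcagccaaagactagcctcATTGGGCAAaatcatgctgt

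Insig1 held 1 CCAAT box, 3 GC boxes, 1 E-box and 1 looser sterol element, the last beginning 9 bases before the start. Msmo1 held 3 CCAAT boxes and 2 GC boxes within 160 bases of the start. Lss had 1 CCAAT box and 2 GC boxes, and Cyp51 had 1 of each. In Nsdhl 2 CCAAT boxes and 1 GC box were found, and the CCAAT box nearest the start overlaps a match to TTGCNNAA.

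**Figure D2:**
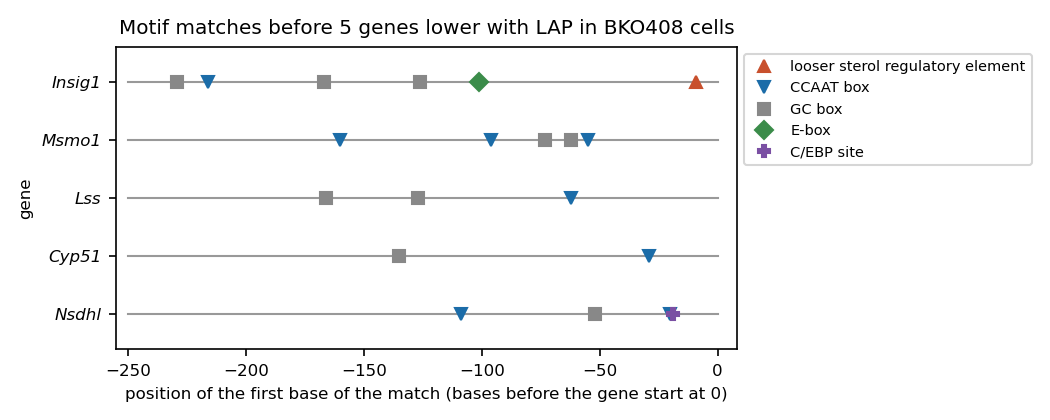
Positions of motif matches in the 250 bases before the start of 5 genes that were lower with LAP in BKO408 cells (horizontal axis in bases before the start, 1 line per gene). Symbols mark the first base of each match. Each of the 5 genes has a CCAAT box and a GC box, and Nsdhl has the only match to the C/EBP motif.

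Across the 26 promoters on the list, 21 (80.8%) held a CCAAT box, against 37.5% of the promoters of 27025 genes, and 21 (80.8%) held a GC box, against 35.4%. The E-box was in 5 (19.2%), against 6.86%. The strict sterol element was in Hmgcs1 alone (3.85%, against 1.22%), and the looser form in Insig1, Hmgcs1 and Acat2 (11.5%, against 6.05%). The C/EBP motif was in Dhcr7 and Nsdhl (7.69%, against 10.8%). The CCAAT box did not divide the genes by what they did in the cells. It was in 12 of 16 promoters of genes that were lower and in 7 of 7 of measured genes that did not pass. These counts describe letters in a short window and show no binding.

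In the tumours the same genes varied widely from tumour to tumour. The median range of the 27 genes over 16 tumours was 1.55, against 1.01 over all genes. Elovl6 had the widest range (5.65), followed by Acss2 (2.85), Cyp51 (2.66), Srebf2 (2.43) and Sqle (2.29), and Ebp had the narrowest (0.59). Within groups, the median SD of the 27 genes was largest among LAP preB-ALL (0.442), then Blnk tumours (0.321), LAP B-ALL (0.241) and LAP/Blnk tumours (0.176). In the cell line it was 0.0504 in control and 0.0328 in LAP cells. The median size of a called difference in cells, 0.341, lay within the range of these tumour SDs.

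**Figure D3:**
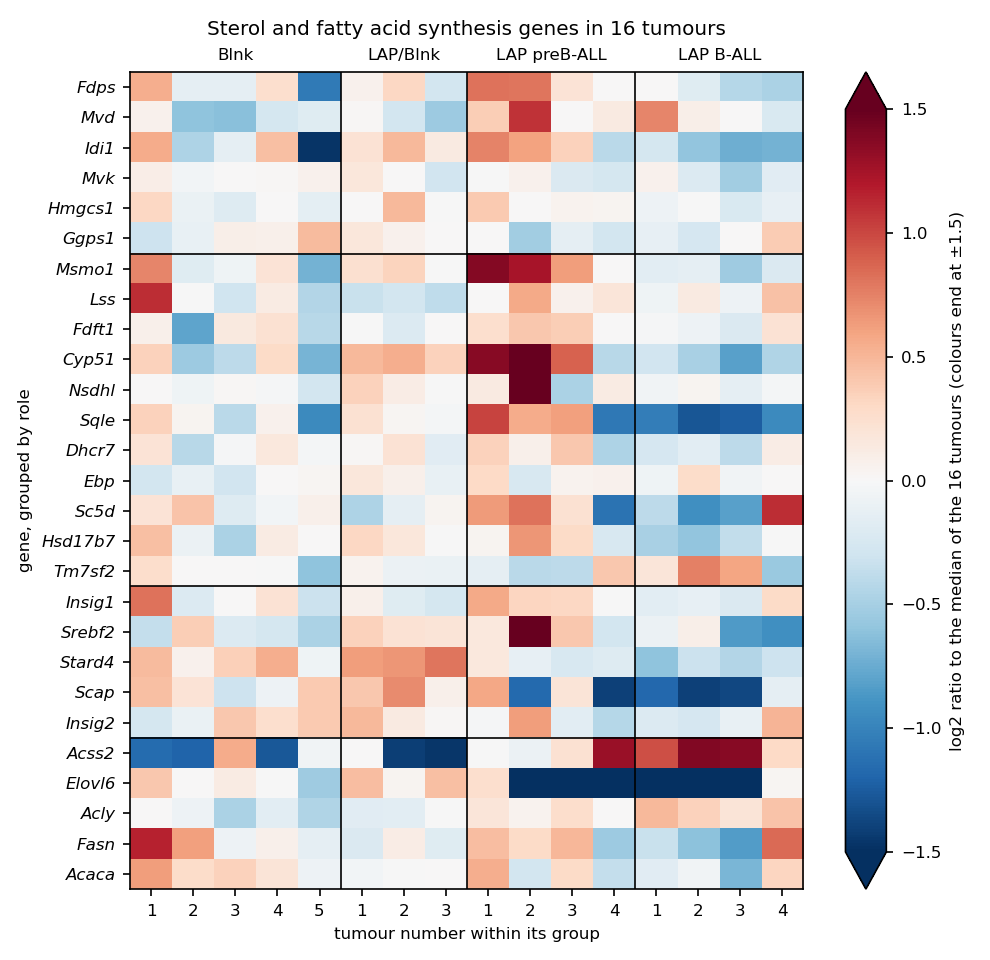
Log2 ratio of each of the 27 genes (rows, grouped by role) to its median over the 16 tumours (columns, by group and number); red is higher, blue lower, and colours end at 1.5 either way. LAP preB-ALL 1 and 2 show the highest values of most sterol enzymes, and Elovl6 is dark blue in LAP preB-ALL 2 to 4 and LAP B-ALL 1 to 3.

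Single tumours stood out at the ends. LAP preB-ALL 2 held the highest value of the 16 tumours for 7 genes, among them Srebf2 (1.51), Cyp51 (1.85) and Nsdhl (1.63). LAP preB-ALL 1 did so for 5 genes, all enzymes of the sterol branch, including Msmo1 (1.38) and Sqle (1.01). Blnk tumour 1 was highest for Insig1 (0.82), Lss (1.11), Fasn (1.16) and Acaca (0.63). At the other end, Blnk tumour 5 was lowest for 6 genes, among them Idi1 (-1.47), Fdps (-1.06) and Msmo1 (-0.71). The granulocyte markers had a list median of 3.40 in that tumour, the highest of the 16, and their part in its low values was not tested. LAP B-ALL 3 was lowest for 5 genes, among them Cyp51 (-0.81) and Fasn (-0.84). The median over the 27 genes ran from -0.18 to 0.31 over the Blnk tumours and from -0.01 to 0.17 over the LAP/Blnk tumours. For LAP preB-ALL it ran from -0.24 to 0.32, and for LAP B-ALL from -0.39 to -0.01, so every group overlapped another.

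The LAP transgene on the Blnk knockout background is the tumour comparison nearest to the cell-line experiment, and there no gene of the list passed the test. In LAP/Blnk against Blnk tumours 0 of 27 genes were called, where 0.0175% of all genes were, and 1 gene had an unadjusted p under 0.05 (limma), against 5.78% of all genes. The median difference was 0.12, against -0.02 over all genes, and 7 of 27 differences were below 0, against 55.5% of all genes. The nearest was Stard4, with 0.63, 0.66 and 0.80 in the LAP/Blnk tumours and 0.47, 0.07, 0.36, 0.55 and -0.07 in the Blnk tumours. The groups did not overlap in the probe set tested, and the difference was 0.42 (SE 0.14, unadjusted p 0.0105, adjusted p 0.604). Another probe set of Stard4 also separated them, with 0.61, 0.48 and 0.89 against 0.23, 0.07, 0.25, 0.44 and -0.10. In the remaining probe set of Stard4 the groups overlapped, with 0.32, 0.26 and 0.10 against 0.28, -0.33, -0.02, 0.18 and -0.37. For Cyp51 the groups did not overlap in the probe set tested, with 0.49, 0.54 and 0.35 against 0.34, -0.55, -0.39, 0.29 and -0.70. Its difference was 0.66 (SE 0.40, adjusted p 0.975 in limma). Such separation with higher values was seen in 2.67% of all genes. A second probe set of Cyp51, which correlated with the first at 0.95 over the tumours, overlapped, with 0.12, 0.15 and 0.15 against 0.62, -0.12, -0.30, 0.44 and -0.86. Insig1 was at -0.23 (SE 0.22), Srebf2 at 0.44 (SE 0.34) and Scap at 0.27 (SE 0.42), and none of them passed the test. The marker lists shifted as well, with no marker called. Below 0 were 11 of 11 granulocyte markers (median -0.62) and 12 of 13 monocyte and macrophage markers (median -0.63). The same held for 9 of 11 T-cell and NK-cell markers (median -0.49), while 11 of 12 B-lineage markers were above 0 (median 0.33). Their part in the differences of the listed genes was not tested.

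**Figure D4:**
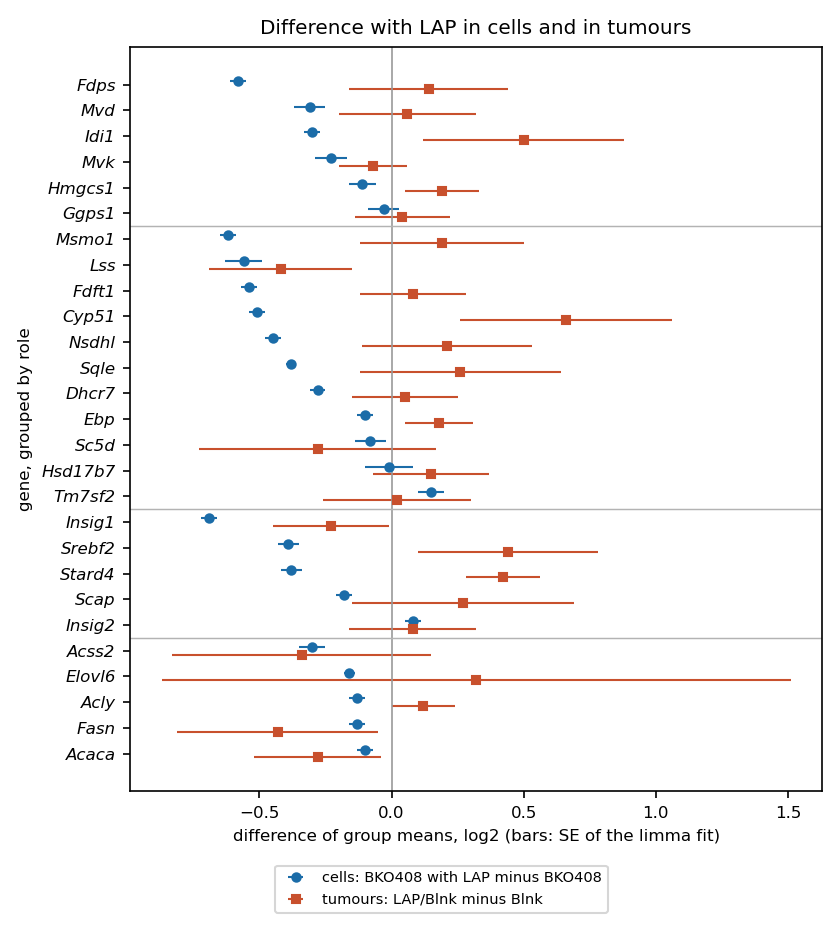
Difference with LAP for each of the 27 genes, on the log2 scale (horizontal axis), in BKO408 cells (circles, 4 arrays against 4) and in tumours (squares, 3 LAP/Blnk against 5 Blnk tumours); bars are the SE of the limma fit. In cells most points lie left of 0 with short bars, down to -0.69 for Insig1, and in tumours 20 of 27 points lie right of 0 with wide bars.

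The difference between both LAP effects was tested directly, in a fit of 4 groups that is free of the separate centring of cells and tumours. It was called for Stard4 and Nsdhl, 2 of 27 genes, both higher in tumours than in cells, where 0.521% of all genes were called in that direction. For Stard4 the LAP difference was 0.42 in tumours and -0.38 in cells, and they differed by 0.80 (SE 0.16, adjusted p 0.032). For Nsdhl the tumours read 0.34, 0.11 and -0.01 in LAP/Blnk and 0.01, -0.07, 0.02, -0.02 and -0.27 in Blnk tumours, while all 4 cell-line arrays with LAP, at -0.25, -0.18, -0.24 and -0.19, lay below the control arrays at 0.26, 0.18, 0.20 and 0.27. The difference of differences for Nsdhl was 0.66 (SE 0.11, adjusted p 0.0124). Cyp51 (1.17, adjusted p 0.0566) and Srebf2 (0.83, adjusted p 0.0537) fell just outside. Cyp51 passed without Blnk tumour 1 (adjusted p 0.0113), 4 (0.017) or 5 (0.0308), and Srebf2 without Blnk tumour 2 (0.000408) or 5 (0.0344). Without Blnk tumour 1, Msmo1 (1.00, 0.0291) and Insig1 (0.64, 0.0465) passed as well. The median over the 27 genes was 0.33, and 6 of 27 were below 0, against 51.6% of all genes; these values share the cell-line arrays with the lower values above. The call for Stard4 was lost without any 1 of the 8 cell-line arrays (adjusted p 0.0561 to 0.0818) and without LAP/Blnk tumour 3 (0.0649). This fit uses 1 spread per gene for cells and tumours together, which is too small for the tumours. The shifts of the marker lists between LAP/Blnk and Blnk tumours also enter this difference, and their part was not tested.

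Of the surrounding genes, Paqr3 (-1.14), Ube2g2 (-0.89) and Coq2 (-0.73) went the other way in that test; each was higher with LAP in cells, and none was called in tumours. Acsl5 (0.64), which activates fatty acids, Mid1ip1 (0.54), a partner of acetyl-CoA carboxylase, and Osbp (0.53) were higher in tumours than in cells. Osbp and Ube2g2 lost this call without any 1 of the cell-line arrays, Osbp also without LAP/Blnk tumour 1 or 3, and Coq2 without LAP cell array 1 or 2 (adjusted p 0.0526 to 0.0944).

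The tumours of LAP mice with Blnk intact were then compared with the Blnk tumours, which also served as controls above. In LAP preB-ALL against Blnk tumours 0 of 27 genes passed, against 0.0819% of all genes, while 8 had an unadjusted p under 0.05, against 13.2% of all genes. These were Acly (0.35), Cyp51 (1.12), Mvd (0.72), Msmo1 (0.82), Fdft1 (0.41) and Acss2 (0.98) above 0, and Stard4 (-0.37) and Elovl6 (-2.94) below. Cyp51 read 1.37, 1.85, 0.88 and -0.42 in the LAP preB-ALL, of which the last is the tumour that resembles LAP B-ALL. Without LAP preB-ALL 4 and LAP B-ALL 4, Cyp51 was higher by 1.57 (SE 0.27, adjusted p 0.0365), the only one of the 27 genes past the threshold, where 0.421% of all genes were. Without LAP preB-ALL 2 as well, Cyp51 was at 1.33 (adjusted p 0.0549 in limma) and 0 genes of the list passed. With all tumours kept, 10 of 12 B-lineage markers were below 0 (median -1.64), as were 11 of 11 stromal and endothelial markers (median -0.55). In contrast, 7 of 7 erythroid markers were above 0 (median 0.90), where 49.3% of all genes were below 0. The part of these markers in the listed genes was not tested.

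Between LAP/Blnk tumours and LAP preB-ALL, which differ in Blnk, Stard4 was the only gene of the list called, where 1.59% of all genes were higher and 0.784% lower. It read 0.63, 0.66 and 0.80 in the LAP/Blnk tumours, whereas the LAP preB-ALL read 0.16, -0.12, -0.24 and -0.19. All 3 LAP/Blnk tumours lay above the other 4, as in 9.08% of all genes, with a difference of 0.79 (SE 0.15), or 1.73-fold, and an adjusted p of 0.0189. Without both tumours numbered 4 it was 0.76 (adjusted p 0.0364), where 1.77% of all genes were higher, and without LAP preB-ALL 2 as well it was 0.73 (adjusted p 0.0572). The call was lost without LAP/Blnk tumour 1 (0.0508), 2 (0.053) or 3 (0.0807), with the mean of the probe sets of Stard4 (0.0522) and in a fit of these 2 groups alone (0.0589). The next genes were Elovl6 (3.26, adjusted p 0.193), Acss2 (-1.32, 0.202) and Mvd (-0.66, 0.226). In the lists around the pathway, Acsl5 (0.87) and Osbp (0.78) were higher and Coq2 (-0.94) lower in the LAP/Blnk tumours. Osbp lost its call without LAP/Blnk tumour 1 or 3, and Coq2 without any LAP/Blnk tumour or without LAP preB-ALL 1 or 3 (adjusted p 0.0514 to 0.168). Both calls were lost in the fit of these 2 groups alone (0.117 for Osbp, 0.205 for Coq2), and that of Coq2 among the more variable genes (0.0513). The B-lineage list had 10 of 12 differences above 0 and a median of 1.93, and its median in each LAP/Blnk tumour (0.32 to 0.46) lay above that in each LAP preB-ALL (-2.35 to -0.35). The erythroid list had 7 of 7 differences below 0 (median -1.65), where its median by tumour was 4.91 in LAP preB-ALL 4 and between -0.55 and -0.21 in the other 6 tumours. The T-cell and NK-cell list had 9 of 11 below 0 (median -0.95). Of these 3 lists, 1 gene passed the test, Klrb1c (3.20), and the part of the markers in the difference of Stard4 was not tested.

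LAP B-ALL and LAP preB-ALL arose in mice of the same genotype and differ in the leukaemia type given by the label. With all 8 tumours 0 of 27 genes passed, against 0.0% of all genes (limma), and 8 of 27 had an unadjusted p under 0.05, against 11.0% of all genes, all 8 lower in B-ALL. The median difference was -0.32, against -0.03 over all genes, and 23 of 27 differences were below 0, against 56.1% of all genes. Sqle read 1.01, 0.56, 0.61 and -1.07 in LAP preB-ALL and -1.04, -1.28, -1.24 and -0.96 in LAP B-ALL. The 4 B-ALL and the tumour labelled LAP preB-ALL 4 were low, 3 preB-ALL were high, and the difference was -1.41 (SE 0.37, adjusted p 0.342). Cyp51 showed the same order, with B-ALL at -0.29, -0.49, -0.81 and -0.45, a difference of -1.43 (SE 0.38), and Msmo1 differed by -1.08 (SE 0.30), with all 4 B-ALL below the 4 preB-ALL, as in 3.37% of all genes. A second probe set of Msmo1 overlapped, with B-ALL at -0.10, -0.01, -0.15 and 0.09 against 0.17, 0.27, -0.11 and 0.06.

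This comparison turned on the tumours that stood apart. With LAP preB-ALL 4 left out, Sqle (-1.86, adjusted p 0.00845), Cyp51 (-1.88, 0.012) and Msmo1 (-1.35, 0.031) were lower in B-ALL. Over all 17097 genes, 99 were lower and 192 higher without that tumour. With LAP preB-ALL 4 and LAP B-ALL 4 left out, 5 genes were lower, where 2.11% of all genes were. They were Sqle (-1.91, SE 0.27, adjusted p 0.00119), Cyp51 (-1.90, 0.00288), Sc5d (-1.27, 0.00315), Msmo1 (-1.36, 0.0196) and Hsd17b7 (-0.81, 0.0382), all enzymes between squalene and cholesterol. In the probe set tested, Sc5d read 0.64, 0.82 and 0.23 in the 3 preB-ALL kept and -0.39, -0.92 and -0.81 in the 3 B-ALL. There the tumours left out, LAP preB-ALL 4 and LAP B-ALL 4, read -1.11 and 1.11, each on the side of the other group. Another probe set of Sc5d separated the groups too, with 0.37, 0.44 and 0.19 against -0.77, -1.11 and -1.35. The tumours left out read -1.05 and 0.02 in it, so LAP B-ALL 4 lay between the groups. In the remaining probe set the groups overlapped, with -0.09, 0.29 and -0.07 against -0.01, -0.26 and -0.20. Here the tumours left out read -0.08 and 0.02. Hsd17b7 read 0.04, 0.66 and 0.29 against -0.49, -0.59 and -0.37, with no overlap in the probe set tested. Tm7sf2 was higher in B-ALL by 0.82 (adjusted p 0.0304), where 4.64% of all genes were higher. It read -0.13, -0.41 and -0.39 in the preB-ALL and 0.18, 0.76 and 0.59 in the B-ALL. With LAP preB-ALL 2 left out too, 8 genes were lower, where 6.31% of all genes were. Sqle (adjusted p 0.00186), Cyp51 (-1.66, 0.00572), Sc5d (-1.14, 0.00684) and Msmo1 (-1.28, 0.0336) were among them, with Dhcr7, Scap, Elovl6 and Acaca, while Hsd17b7 was not (-0.65, 0.0746). All these tumours were left out after the data were seen, on the correlation over all genes, to which the listed genes also belong. With LAP preB-ALL 2 alone left out, 0 genes passed. The erythroid markers moved with this contrast, with a list median of -0.55 to -0.27 in LAP preB-ALL 1 to 3 against 4.85 to 5.42 in LAP B-ALL 1 to 3, while LAP preB-ALL 4 was at 4.91 and LAP B-ALL 4 at 1.23. The granulocyte markers did so too, from -0.87 to -0.41 against 1.60 to 2.22, while LAP preB-ALL 4 was at 2.60 and LAP B-ALL 4 at 2.83. With no tumour left out, 13 of 13 monocyte and macrophage markers were higher in B-ALL (median 1.19). The part of these markers in the lower sterol genes was not tested.

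Scap and Elovl6 had a pattern that cut across the labels. Scap read 0.58, -1.17, 0.19 and -1.40 in LAP preB-ALL and -1.18, -1.40, -1.37 and -0.13 in LAP B-ALL, while the other 8 tumours lay between -0.31 and 0.71. Its low values fell in LAP preB-ALL 2 and 4 together with LAP B-ALL 1 to 3. In those 5 tumours Vpreb1, which encodes part of the surrogate light chain of the pre-B receptor, lay between -8.97 and -8.49, and it lay between -0.45 and 0.35 in the other 11. Elovl6 read 0.25, -4.83, -2.45 and -4.73 in LAP preB-ALL and -5.10, -5.19, -4.54 and 0.03 in LAP B-ALL, and between -0.53 and 0.46 in the rest. It was thus low in the same 5 tumours and, less so, in LAP preB-ALL 3, where Vpreb1 was at 0.01. Its other probe sets followed it over the tumours, with correlations of 0.99 and 0.95, unlike in the cells. Gpam, outside the list, was also low in these 6 tumours (-2.68 to -1.44). Acss2 was high in 4 of the 5 tumours, with 1.30 for LAP preB-ALL 4, then 0.97, 1.39 and 1.37 for LAP B-ALL 1 to 3, but -0.09 for LAP preB-ALL 2. These patterns were noticed in the data and were given no test.

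Insig1 and Srebf2, which were both lower with LAP in cells, ordered the tumour groups differently. Insig1 ran from -0.32 to 0.82 over the Blnk tumours and from -0.26 to 0.08 over the LAP/Blnk tumours. For LAP preB-ALL its range was -0.01 to 0.57, and for LAP B-ALL it was -0.22 to 0.29. Srebf2 ran from -0.47 to 0.37, from 0.19 to 0.35, from -0.28 to 1.51 and from -0.92 to 0.09 in the same order. LAP/Blnk tumours had the lowest group mean of the preB-ALL groups for Insig1 but not for Srebf2, and all these ranges overlapped except those of LAP/Blnk tumours and LAP B-ALL for Srebf2. Insig2 ran from -0.43 to 0.63 over the 16 tumours with every group overlapping the others.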

How the data were processed

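Per the labels, total RNA was labelled with biotin for Affymetrix arrays, and the submitters' processing notes name MAS5, without a version and with no other tool. The authors deposited log2 ratios (the base is taken, not stated) of 45141 probe sets, each centred to a median of 0 over the 8 cell-line arrays and over the 16 tumours, with no detection calls. Probe sets with 1 symbol numbered 28898, those with several 551 and those with none 15692; 28689 of the first matched GRCm38.p6 and 0 symbols were updated. Each of 17097 genes was tested through its most variable probe set (SD around the mean of each set of arrays). Tests were made in limma 3.58.1 under R 4.3.3 (two-sided moderated tests, Benjamini-Hochberg over all genes, threshold 0.05), in 1 fit of the cell line, 1 of all tumours and 1 of 4 groups for the difference of LAP effects. SE is that of the fit. The fits were tested on simulated data. The genes and lists were chosen with earlier results of these data known. Single arrays were given for the 4 largest cell-line differences, for genes called in tumours and for regulators, and at most the 4 largest called genes of each other list; further names were chosen after their values were seen. Alternatives changed the probe set, scaling, filter, weights, arrays and block. The number of arrays limits the precision.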

Additional observations from a re-analysis of the deposited data

Results flagged for a closer look

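Of 140 sets of 4 or 5 arrays, 9 held an array far from the rest by Dixon's test, and chance gives about 1 in 20. In control cells, array 1 was high for Scap (0.15) and Sc5d (0.14), each well apart from the other 3 arrays of its group. With LAP, array 1 was low for Stard4 (-0.21), array 4 was the highest for Acly (-0.02) and array 2 the highest for Ggps1 (0.10). In the tumours, LAP preB-ALL 1 was high for Hmgcs1 (0.39), the enzyme that commits acetyl-CoA to sterols, and LAP B-ALL 2 was high for Ebp (0.28). Elovl6 was at 0.03 in LAP B-ALL 4, far above LAP B-ALL 1 to 3. The median over the 27 genes was -0.24 in LAP preB-ALL 4, far below the other LAP preB-ALL. The last 2 involve tumours that stood apart from their groups.

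The LAP difference in tumours minus that in cells was past the threshold for Stard4 (0.80) and Nsdhl (0.66), by the test of the difference itself (limma).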

How the results depend on the processing

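In cells, the count of 20 lower genes was 15 to 20 under the other settings, with 17 under the replicate block, where Mvk, Acly and Acaca lost their calls. With the probe set chosen by name, Msmo1, Stard4, Acaca, Acly and Elovl6 lost theirs. A fit of all 24 arrays, which takes the spread of the tumours, called 0. The median difference was -0.20 with the probe set chosen by name and -0.30 among the more variable genes, and Elovl6 (0.00 with the mean of probe sets, 0.11 with the probe set by name) and Mbtps1 (-0.06 by name, 0.25 otherwise) changed sign. In LAP/Blnk tumours against LAP preB-ALL, Stard4 was not called (0 genes) with the mean of probe sets, in a fit of only the 2 groups and under the replicate block. Without both tumours numbered 4, an alternative added after seeing the data, 1 gene was higher in LAP preB-ALL than in Blnk tumours, and 1 was higher and 5 were lower in LAP B-ALL than in LAP preB-ALL. Without LAP preB-ALL 2 as well, also added after seeing the data, 0 genes were called in LAP/Blnk tumours against LAP preB-ALL, and 1 was higher and 8 were lower in LAP B-ALL, with a median of -0.57. In the difference of LAP effects, 1 gene was called with the probe set by name and 5 with array weights, and the median was 0.46 among the more variable genes.

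With each array left out in turn, the cells had 17 to 20 lower and 0 to 1 higher genes and a median of -0.30 to -0.25. LAP preB-ALL against Blnk tumours had 0 to 1 higher, LAP/Blnk tumours against LAP preB-ALL 0 to 1 higher, LAP B-ALL against LAP preB-ALL 0 to 3 lower, and the difference of LAP effects 1 to 5 higher genes. Over all genes, calls fell from 3820 to 21 (16 higher, 5 lower) in cells with all 24 arrays, and from 406 to 50 (40 higher, 10 lower) in LAP/Blnk tumours against LAP preB-ALL with the 2 groups alone and to 0 with the replicate block; the cause was not tested. Centring arrays on their medians turned the split in cells from 1801 higher and 2019 lower genes to 1921 and 1862, and left 19 of the 27 genes lower. Same-numbered arrays did not deviate together throughout: their correlations were -0.03 to 0.26 in cells and -0.64 to 0.38 between tumour groups, so the main fits used no pairing by number. These correlations cannot tell whether same-numbered arrays were handled together. No block was fitted for the difference of LAP effects.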
